A study of Rattus norvegicus with 19 samples.

Results

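Protein kinase C (PKC) and protein kinase D (PKD) isoforms were followed in the left ventricles of rats, as the transcripts of 10 genes among the 17455 gene symbols in the count files. The 10 genes were taken by symbol, and all of them were found and passed the filter on low counts. PKC isoforms are serine/threonine kinases that relay signals from receptors coupled to Gq proteins. They fall into classes by what switches them on. The classical isoforms (cPKC, here Prkca and Prkcb) need both calcium and diacylglycerol, the lipid that phospholipase C releases. The calcium-independent isoforms (nPKC, here Prkcd, Prkce, Prkch and Prkcq) need diacylglycerol alone. The atypical isoforms (aPKC, here Prkci and Prkcz) respond to neither and are steered by partner proteins. PKD (here Prkd1 and Prkd3) is a separate kinase family that nPKC isoforms phosphorylate and activate. In heart muscle these kinases are known for effects on contraction, on growth of the myocyte and on its survival of ischemia. A transcript level does not measure the amount of a kinase or its activity.

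The study induced heart failure with preserved ejection fraction (HFpEF) in Sprague-Dawley rats, labelled wildtype, aged 24 weeks. The model takes weeks, where the human disease develops over years. L-NAME, which blocks nitric oxide synthase, was given at 0.5 g/L in the water with a diet holding 60% of its kilocalories as fat. Hearts of healthy rats (control 5w, n = 3) and of induced rats (HFpEF, n = 3) were taken at week 5. At week 9 there were healthy rats (control 9w, n = 3) and induced rats that had been gavaged for 4 weeks. The untreated group (n = 3) received phosphate-buffered saline and the EMPA group (n = 2) received empagliflozin, an inhibitor of the glucose transporter SGLT2, at 0.35 g/kg/day. The PFD group (n = 2) received pirfenidone, an antifibrotic drug, at 0.3 g/kg/day, and the EMPA + PFD group (n = 3) received both drugs at these doses. The controls ate chow and had no L-NAME in their water. The methods call the empagliflozin dose supratherapeutic. Every library came from a separate heart, and its total count lay between 7430539 and 13017754, with a median of 9951011. At that depth the lowest count of a member was 18, for Prkcz in PFD replicate 1, and the highest was 1690, for Prkd3 in HFpEF replicate 1. Levels are CPM, counts scaled to the size of each library with TMM factors. A gene is called where its adjusted p in edgeR was under 0.05 over all 12388 genes tested, and a stricter rule also asks for at least a 2-fold difference.

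The libraries did not all match their labels. All 19 are labelled male, but the Y-linked gene Eif2s3y was at 0 counts in 7 libraries, namely the PFD and untreated groups in full and replicates 1 and 3 of HFpEF. The remaining 12 held between 613 and 1321 counts of it. RT1-CE16, a gene of the major histocompatibility complex, had at most 3 counts in every control 5w, HFpEF and EMPA library and 308 to 922 counts in the others. Any comparison of untreated with control 9w, EMPA or EMPA + PFD is therefore also one of libraries without and with Eif2s3y, and treatment and Eif2s3y status cannot be told apart there. For EMPA against untreated the same holds of RT1-CE16. PFD against untreated and EMPA + PFD against control 9w are matched for the presence of both genes, though RT1-CE16 was called lower in EMPA + PFD than in control 9w (-0.87, adjusted p = 0.00892). The tissue is labelled heart, and all 12 of 12 cardiomyocyte markers were above 0 counts in every library. Their sum ran from 17225 to 125074 CPM and Myh6 had the most reads on average, without regard to transcript length, as for the markers named below. In single libraries Myh7, Actc1 or Tnnt2 had more.

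Prkce encodes PKC epsilon, an isoform known for its part in ischemic preconditioning and for its attachment to myofilaments and mitochondria. Its level spread over a 7.42-fold range in the 19 libraries, the widest of the 10 members. In control 5w it was 27.2, 20.1 and 20.5 CPM in replicates 1 to 3, and in HFpEF it was 5.53, 8.80 and 10.003 CPM. In control 9w it was 8.12, 6.89 and 7.88 CPM, and in untreated 14.3, 8.93 and 10.9 CPM. All control 5w libraries thus stood above all HFpEF, control 9w and untreated libraries. EMPA gave 8.92 and 8.50 CPM and PFD gave 17.9 and 15.4 CPM. EMPA + PFD gave 23.4, 41.0 and 33.2 CPM. The 3 libraries of the combination lay above every untreated, EMPA and PFD library and overlapped only with control 5w. In the order of group means, EMPA + PFD overlapped with control 5w, and EMPA, HFpEF and control 9w, the lowest, overlapped in neighboring pairs. PFD stood apart from its neighbors in this order, while untreated overlapped with HFpEF.

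Prkca encodes PKC alpha, a cPKC of heart muscle known to lower contractility. Its level was 21.2, 39.8 and 38.4 CPM in control 5w and 22.6, 11.7 and 16.7 CPM in HFpEF. In control 9w it was 12.0, 10.9 and 18.4 CPM, and in untreated 19.2, 16.1 and 15.0 CPM. Control 5w replicate 1 held about as much Prkca as HFpEF replicate 1, so these groups overlapped, while control 9w lay wholly below control 5w. EMPA gave 14.9 and 21.98 CPM, PFD 24.8 and 23.7 CPM, and EMPA + PFD 28.9, 23.0 and 27.9 CPM. The combination and PFD were above all untreated and control 9w libraries and overlapped with each other. The other cPKC, Prkcb, which encodes PKC beta and is well known from leukocytes, had a different order. It was 7.73, 12.5 and 12.6 CPM in control 5w, 22.3, 7.70 and 14.8 CPM in HFpEF, and between 4.06 and 11.1 CPM in every library of week 9. Its group ranges overlapped at each step of the order.

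Prkch encodes PKC eta, an isoform described in epithelia and endothelium. It was 62.2, 47.3 and 58.9 CPM in control 5w and 59.4, 133 and 94.0 CPM in HFpEF. It was highest in control 9w, with 120.4, 145 and 106 CPM, and reached 92.6, 98.6 and 104 CPM in untreated. EMPA gave 99.3 and 77.98 CPM, PFD 90.3 and 83.7 CPM, and EMPA + PFD 68.6, 70.7 and 71.2 CPM. Control 5w and EMPA + PFD were the lowest groups and control 9w the highest, which is the order of Prkca reversed. HFpEF replicate 1 lay among the control 5w libraries, so HFpEF and control 5w overlapped. Over the 19 libraries the Pearson r of log2 CPM between Prkch and Prkca was -0.906, the most negative of the pairs of members. This r describes libraries that fall into groups and carries no test.

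Prkcd encodes PKC delta, which is known for promoting cell death after reperfusion. It was 66.0, 93.6 and 94.6 CPM in control 5w, 88.5, 38.1 and 57.5 CPM in HFpEF, and 35.3, 31.0 and 47.1 CPM in control 9w. It was 34.7, 48.9 and 52.9 CPM in untreated, 43.4 and 82.4 CPM in EMPA, 40.4 and 35.6 CPM in PFD, and 32.8, 29.3 and 30.3 CPM in EMPA + PFD. The combination had the lowest mean and the narrowest spread of the groups with 3 libraries, and it lay below every untreated library. PKC delta and PKC epsilon are often described as having opposed effects in the ischemic heart. The ratio of Prkce to Prkcd counts was at most 0.442 in each of the libraries outside EMPA + PFD, and 0.715, 1.40 and 1.10 in EMPA + PFD. This ratio compares libraries and is not a ratio of molecules, because the counts are not divided by transcript length.

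Prkcq encodes PKC theta, known from T cell receptor signaling and from skeletal muscle, and ranged from 4.06 to 13.6 CPM. Among the aPKC genes, Prkci (PKC iota, a partner of the polarity protein Par6) ranged from 23.9 to 49.6 CPM and Prkcz (PKC zeta) from 1.97 to 11.8 CPM. Prkcb, Prkcq, Prkci and Prkcz each had their highest level in the same library, HFpEF replicate 1. In the PKD family, Prkd1, the isoform known to phosphorylate class II histone deacetylases in cardiac hypertrophy, ranged from 14.8 to 28.9 CPM. All its neighboring groups overlapped except EMPA, the lowest, and PFD. Prkd3 ranged from 63.2 to 126 CPM. In EMPA + PFD it was 79.8, 63.2 and 73.0 CPM, below all the other libraries of the series, whose lowest was control 5w replicate 1 at 85.4 CPM. In untreated Prkd3 was 96.7, 116 and 101 CPM, in EMPA 97.3 and 87.0 CPM, and in PFD 87.3 and 97.1 CPM.

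**Figure D1:**
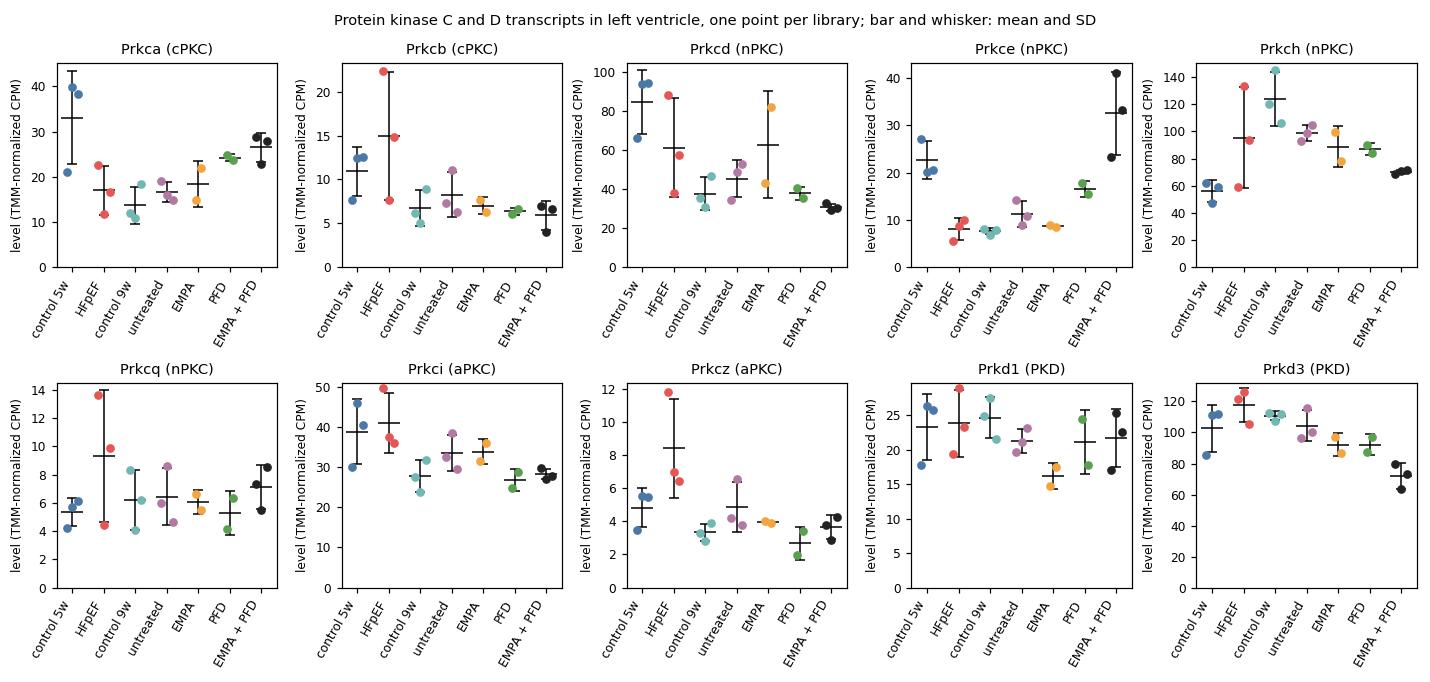
Level of each of the 10 members in TMM-normalized CPM (y axis, from 0) by group (x axis), with 1 point per library, the mean as a bar and the SD as a whisker. Prkce is highest in EMPA + PFD and control 5w, Prkch is lowest in the same groups, and Prkd3 is lowest in EMPA + PFD.

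HFpEF against control 5w compares hearts with and without induction at week 5. Prkce was lower by 1.48 ± 0.24 on the log2 scale (log2 fold change -1.48 ± SE 0.24, adjusted p = 0.00185) and Prkca by -0.96 ± 0.27 (adjusted p = 0.0244), while Prkch was higher by 0.77 ± 0.22 (adjusted p = 0.0241). That makes 3 of 10 members called, 2 lower and 1 higher, against 20.0% of all genes tested. The calls over all genes, 2478, varied from 1490 to 3125 with a library left out and were 714 in a fit to these groups alone. Under the 2-fold rule 1 member was called, Prkce, against 8.69%. The median log2 fold change was 0.14 over the members and 0.02 over all genes. By class, 1 of 2 cPKC genes and 2 of 4 nPKC genes were called, and none of the 2 aPKC and 2 PKD genes. The nPKC genes went both ways. Prkcz (0.80 ± 0.30, adjusted p = 0.0732), Prkcq (0.80 ± 0.37, adjusted p = 0.138) and Prkcb (0.45 ± 0.35, adjusted p = 0.367) did not pass. DESeq2 called Prkcz as well (adjusted p = 0.0449, in a range of 0.0449 to 0.427 over the alternatives). Voom called Prkcd (-0.71, adjusted p = 0.00783, range 0.00783 to 0.617) and Prkcq (0.64, 0.0412, range 0.0399 to 0.707).

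Prkca and Prkch lost their calls at week 5 when some single libraries were left out, and Prkce did not. Prkca was not called without HFpEF replicate 2 (-0.75, adjusted p = 0.0915), HFpEF replicate 3 (-0.94, 0.0575), control 5w replicate 2 (-0.81, 0.0815) or control 5w replicate 3 (-0.84, 0.0797). Prkch was not called without HFpEF replicate 2 (0.45, adjusted p = 0.119), control 5w replicate 2 (0.66, 0.082) or control 5w replicate 3 (0.80, 0.0544). The log2 fold change stayed near its full value without some of these libraries. HFpEF replicate 2 is also the only HFpEF library with Eif2s3y counts. With a term for Eif2s3y the folds were larger, Prkca at -1.50 and Prkch at 1.25, and the sign of Prkcq turned (-0.29). All control 5w libraries have Eif2s3y counts, so this fit sets HFpEF replicate 2 alone against them. These values therefore rest on that library. Without HFpEF replicate 2 Prkcq was called (1.13, adjusted p = 0.0399). In a fit to the libraries of these groups alone, Prkca (-0.95, adjusted p = 0.108) and Prkch (0.78, 0.162) were not called at nearly the same fold. Over all alternatives the adjusted p ran from 7.81e-05 to 0.108 for Prkca, from 0.000758 to 0.162 for Prkch and from 1.05e-06 to 0.0404 for Prkce.

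Healthy hearts at week 9 against healthy hearts at week 5 gave the most calls, with 5 of 10 members against 34.5% of all genes tested (4276 genes, and 2586 to 4738 with a library left out). Prkce (-1.56 ± 0.25, adjusted p = 0.000577), Prkca (-1.26 ± 0.28, 0.00371), Prkcd (-1.16 ± 0.29, 0.00736) and Prkci (-0.49 ± 0.17, 0.0374) were lower, and Prkch was higher (1.14 ± 0.22, 0.00169). The 2-fold rule left 4 of 10, all but Prkci, against 14.7%. The called members came from every class but PKD, with 1 of 2 cPKC, 3 of 4 nPKC and 1 of 2 aPKC genes. The median over the members was -0.51, beside -0.04 over all genes. The groups overlapped for Prkci and not for the other 4. The share of all genes whose groups did not overlap was not counted, so this only describes the levels. Prkci was no longer called without control 5w replicate 2 (-0.35, adjusted p = 0.168), control 5w replicate 3 (-0.46, 0.0972), control 9w replicate 1 (-0.48, 0.0926), control 9w replicate 2 (-0.39, 0.151) or EMPA + PFD replicate 3 (-0.48, 0.0504). The call was also lost under upper quartile normalization (-0.50, 0.0504), with the replicate block (-0.48, 0.0584) and in the fit to the groups compared (-0.46, 0.104). Its adjusted p ran from 8.73e-06 to 0.168 over the alternatives. The healthy groups differ in RT1-CE16 and in week together, so age and whatever else separated these animals cannot be told apart.

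Untreated against control 9w compares diseased and healthy hearts at week 9, and 0 of 10 members were called in edgeR, against 1.78% of all genes tested (0.912% and 0 members under the 2-fold rule). The calls over all genes, 220, varied from 8 without control 9w replicate 2 to 1015 without untreated replicate 2. Prkce alone had an unadjusted p under 0.05, so 1 of 10 members did, beside 2259 of all 12388 genes tested. The log2 fold change of Prkce was 0.57 ± 0.25 (95% CI 0.04 to 1.10, adjusted p = 0.237), and all untreated libraries lay above all control 9w libraries. DESeq2 called 0 members and voom with sample weights called 1, Prkce (adjusted p = 0.0265, range over the alternatives 0.0265 to 0.647). The difference in the disease effect between the weeks was itself tested, and Eif2s3y status enters it through untreated and HFpEF. It was called for 3 of 10 members, against 20.0% of all genes, and the same 3 passed the 2-fold rule, against 12.0%. The calls over all genes, 2473, varied from 1321 to 3690 with a library left out. The effect at week 9 minus that at week 5 was 2.05 ± 0.35 for Prkce (adjusted p = 0.00244), 1.24 ± 0.39 for Prkca (0.0373) and -1.10 ± 0.31 for Prkch (0.0222). The control groups at the weeks differed in these same genes, as given above, and enter this difference.

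The difference between weeks kept its call for Prkce whichever library was left out. For Prkca it was lost without HFpEF replicate 2 (1.03, adjusted p = 0.0797), HFpEF replicate 3 (1.22, 0.062), control 5w replicate 2 (1.08, 0.0819), control 5w replicate 3 (1.12, 0.0805), control 9w replicate 1 (1.14, 0.0869), control 9w replicate 2 (1.09, 0.0944), untreated replicate 1 (1.13, 0.0953) or untreated replicate 3 (1.31, 0.0515). It was also lost with the term for Eif2s3y (1.03, 0.0799), in the fit to the groups compared (1.24, 0.0705) and with the replicate block (1.26, 0.0513). For Prkch it was lost without control 5w replicate 2 (-0.99, 0.0514), control 9w replicate 2 (-0.97, 0.0612) or untreated replicate 1 (-1.05, 0.058), and in the fit to the groups compared (-1.10, 0.0695). The size of the difference was thus largely kept where the call was lost. The ranges over all alternatives were 9.69e-05 to 0.0953 for Prkca and 0.000417 to 0.0695 for Prkch. Untreated against HFpEF compares diseased hearts at weeks 9 and 5, which also differ in RT1-CE16 in full and in Eif2s3y in part. It had 0 of 10 members called in edgeR, against 0.226% of all genes (0 members and 0.194% under the 2-fold rule). Prkcb (-0.85 ± 0.35, adjusted p = 0.178) and Prkcz (-0.79 ± 0.30, 0.158) made up the 2 members with an unadjusted p under 0.05. Of all 12388 genes tested, 2817 had such a p. DESeq2 called 0 members and voom 3, Prkcb, Prkcq and Prkcz, which were not set against the share of all genes called in voom. Without untreated replicate 2, edgeR called 1, Prkcz (-1.07, adjusted p = 0.0453, range over the alternatives 0.0127 to 0.665), while the calls over all genes went from 28 to 1787.

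EMPA + PFD against untreated compares diseased hearts with and without both drugs. Prkce was higher by 1.52 ± 0.24 (2.86-fold, adjusted p = 0.00677) and Prkd3 lower by -0.53 ± 0.13 (adjusted p = 0.0208), in all 3 treated libraries against all 3 untreated ones. That is 2 of 10 members called, against 12.1% of all genes tested, and 1 of 10 under the 2-fold rule, Prkce, against 3.82%. The calls over all genes, 1501, varied from 110 to 2263 with a library left out (140 without untreated replicate 2) and were 5 in a fit to these groups alone. By class, 1 of 4 nPKC and 1 of 2 PKD genes were called, and none of the cPKC and aPKC genes. The median over the members was -0.33 and over all genes -0.03. Prkca (0.67 ± 0.27, adjusted p = 0.109), Prkch (-0.49 ± 0.22, 0.131) and Prkcd (-0.56 ± 0.29, 0.188) did not pass, though their groups did not overlap either. Their confidence intervals were 0.08 to 1.25, -0.95 to -0.03 and -1.18 to 0.05. How many of all genes had groups without overlap was not counted.

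Eif2s3y status separates these groups completely. With a term for it, which only the HFpEF libraries can inform within a group, Prkce was 1.33 (adjusted p = 0.102), Prkd3 -0.69 (0.089) and Prkcd 0.37 (0.66), and only Prkch was called (-1.29, 0.0388). Prkca was 1.41 with this term and not called, and its adjusted p ran from 0.00678 to 0.284 over the alternatives. In a fit to the libraries of these groups alone, Prkce was 1.51 (adjusted p = 0.0827) and Prkd3 -0.55 (0.104). Prkce kept its call whichever library was left out, and its adjusted p ran from 1.13e-06 to 0.102 over the alternatives. Prkd3 was no longer called without EMPA + PFD replicate 2 (-0.44, adjusted p = 0.118), EMPA + PFD replicate 3 (-0.53, 0.0695), untreated replicate 2 (-0.45, 0.0928) or untreated replicate 3 (-0.55, 0.0526), with a range of 0.00103 to 0.118. For Prkch the range was 0.0154 to 0.284 and for Prkcd 0.0359 to 0.66. The call of Prkch appeared without HFpEF replicate 1 (-0.49, adjusted p just under 0.05).

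EMPA + PFD against control 9w, where both groups have Eif2s3y and RT1-CE16 counts, had 4 of 10 members called, against 33.8% of all genes tested (4181 genes, and 2476 to 4570 with a library left out). Prkce (2.09 ± 0.25, adjusted p = 0.000276) and Prkca (0.94 ± 0.28, 0.0181) were higher, and Prkch (-0.82 ± 0.22, 0.0106) and Prkd3 (-0.62 ± 0.13, 0.00285) lower. Under the 2-fold rule 1 was called, Prkce, against 12.1%. All 4 had groups that did not overlap, a count that was not set against the share of all genes. Prkca lost its call without control 9w replicate 1 (0.85, adjusted p = 0.0701) or control 9w replicate 2 (0.80, 0.0791), in a range of 5.63e-05 to 0.0791. Prkch lost it without control 9w replicate 2 (-0.69, 0.0517), in a range of 0.00015 to 0.0517.

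The drugs given alone called no member. In edgeR, EMPA against untreated had 0 of 10 members called, against 0.0404% of all genes under either rule. An unadjusted p under 0.05 was found for 0 members and for 1069 of all 12388 genes tested. DESeq2 and voom called 0 as well. Prkce was -0.38 ± 0.28 (95% CI -0.98 to 0.21) and Prkcd 0.47 ± 0.32, the latter resting on EMPA replicate 2, without which it was -0.07. PFD against untreated had 0 of 10 called in edgeR, against 0.00807% under either rule, and 0 in DESeq2 and voom. Prkcz was the 1 member with an unadjusted p under 0.05 (-0.86 ± 0.36, adjusted p = 0.786), at 18 and 33 counts in PFD. Of all 12388 genes tested, 646 had such a p. Prkce was 0.55 ± 0.27 (95% CI -0.02 to 1.12) and Prkca 0.53 ± 0.30 (-0.11 to 1.18), and for both genes the PFD libraries lay above the untreated ones. The interaction asks whether the combination differs from the sum of the single effects. It had 0 of 10 members called in edgeR, DESeq2 and voom, against 0.00807% under either rule. The 1 gene called was RT1-CE16 itself, and EMPA is the only group of week 9 without it, so the interaction and RT1-CE16 status cannot be told apart. Prkce was the 1 member with an unadjusted p under 0.05, beside 1131 of all 12388 genes, with 1.35 ± 0.39 (95% CI 0.52 to 2.18, adjusted p = 0.353). With 2 libraries in each of the EMPA and PFD groups, these intervals are wide.

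**Figure D2:**
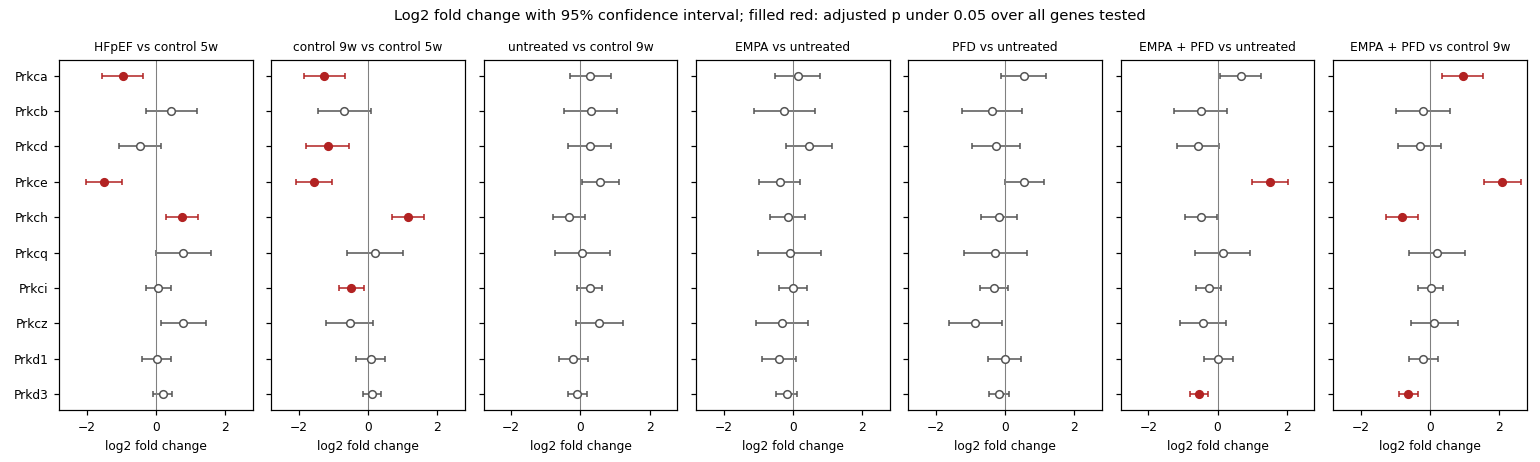
Log2 fold change (x axis) of the 10 members (y axis) in 7 comparisons, with the 95% confidence interval as a whisker and red filled points for members called. Prkce is called in 4 of the 7 comparisons, lower in HFpEF and control 9w against control 5w and higher in EMPA + PFD against untreated and control 9w.

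The classes were also taken as shares of the summed counts of the 10 members in each library, which are shares of reads, not divided by length, to be compared between libraries. The nPKC genes took 40.3% to 51.3% and the PKD genes 30.1% to 38.5%. The aPKC genes took 7.32% to 14.8%, with the highest share in HFpEF replicate 1. The cPKC share ran from 4.38% in control 9w replicate 2 to 12.8% in control 5w replicate 2. It was 8.89%, 12.8% and 12.3% in control 5w, 5.06%, 4.38% and 7.53% in control 9w, and 12.0%, 9.25% and 11.3% in EMPA + PFD. It was 10.9%, 4.82% and 8.42% in HFpEF and 8.12%, 7.27% and 6.06% in untreated. EMPA gave 6.89% and 8.16%, and PFD 9.59% and 9.53%. Control 5w, PFD and EMPA + PFD thus overlapped and lay above control 9w, untreated and EMPA. Within the nPKC class the shares hide opposite directions, since Prkce and Prkch were called in opposite directions in each comparison that called both.

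The genes most like each member over the 19 libraries, by Pearson r of log2 CPM among 10013 or 10014 candidates, set the isoforms apart. For Prkch they were Rasip1 (r = 0.982), Anxa3 (0.981) and Nos3 (0.970). Rasip1 is required for blood vessel lumens and Nos3 is the endothelial nitric oxide synthase. For Prkce they were Limch1 (0.968), Pdp1 (0.967) and Ogdh (0.966), the latter pair being a phosphatase that activates pyruvate dehydrogenase and an enzyme of the tricarboxylic acid cycle. Prkcb went with Laptm5 (0.952), known from leukocytes, and Pde3b (0.950). Prkcq went with Reln (0.880) and Cdh19 (0.834), a cadherin of Schwann cells.

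Prkca was most like Vldlr (0.922), Ccnd2 (0.920) and Pard3b (0.913), and Prkcd most like Pfn1 (0.916), Thy1 (0.915) and Maged2 (0.914). The aPKC genes had Foxp4 (0.956), Dact3 (0.948) and Chsy1 (0.941) for Prkci, and Ttc7a (0.920), Tmeff2 (0.893) and Apoe (0.893) for Prkcz. Prkd3 was most like Stat6 (0.954), Mansc1 (0.948) and Elovl1 (0.941). Prkd1 was most like Rbms2 (0.900), followed by Pdcd6ip (0.769) and Maml1 (0.768). All of these r are over libraries that share groups and carry no p.

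Markers of cell types moved with the members. All 10 of 10 endothelial markers were in the files and above 0 in every library, and Eng had the most reads on average. Their sum was 2372, 2030 and 2274 CPM in control 5w, 2471, 4818 and 3996 CPM in HFpEF, and 5264, 5341 and 4741 CPM in control 9w. It was 3963, 4868 and 4286 CPM in untreated, 3978 and 3106 CPM in EMPA, 3272 and 3431 CPM in PFD, and 2773, 2360 and 2415 CPM in EMPA + PFD. Prkch followed this sum closely. Per 1000 CPM of endothelial markers, Prkch lay between 20.2 and 29.9 CPM in all 19 libraries, a 1.48-fold range, where Prkch itself had a 3.07-fold range and the marker sum a 2.63-fold range. In bulk tissue, a change in the share of a cell type and a change in RNA per cell cannot be told apart. Of the endothelial markers 6 of 10 were called higher in HFpEF against control 5w (20.0% of all genes called) and 9 of 10 higher in control 9w against control 5w (34.5%). In EMPA + PFD against control 9w 9 of 10 were called lower (33.8%), and in the difference between weeks 5 of 10 (20.0%). Prkch was called in each of these. In EMPA + PFD against untreated 2 of 10 endothelial markers were called lower (12.1%), and Prkch was not called.

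The cardiomyocyte sum was 108456, 53642 and 59140 CPM in control 5w, 17225, 26672 and 46074 CPM in HFpEF, and 46498, 53272 and 49499 CPM in control 9w. It was 83462, 23691 and 74406 CPM in untreated, 62798 and 52285 CPM in EMPA, 86232 and 89017 CPM in PFD, and 100544, 125074 and 98273 CPM in EMPA + PFD. HFpEF was low and EMPA + PFD high, as for Prkce. Of these markers 3 of 12 were called lower in HFpEF against control 5w (20.0% of all genes called) and 1 of 12 higher in EMPA + PFD against untreated (12.1%). In control 9w against control 5w 1 of 12 was called lower (34.5%), and in EMPA + PFD against control 9w 4 of 12 higher (33.8%). In the difference between weeks 3 of 12 were called higher (20.0%). The median log2 fold changes of these markers in these 5 comparisons, in the order given, were -1.21, 0.816, -0.545, 1.237 and 1.621. Per 100000 CPM of these markers, Prkce was 25.1, 37.5 and 34.7 CPM in control 5w, 32.1, 33.0 and 21.7 CPM in HFpEF, and 17.5, 12.9 and 15.9 CPM in control 9w. It was 17.2, 37.7 and 14.6 CPM in untreated, 14.2 and 16.3 CPM in EMPA, 20.7 and 17.3 CPM in PFD, and 23.3, 32.8 and 33.8 CPM in EMPA + PFD. On this scale HFpEF overlapped with control 5w and untreated overlapped with EMPA + PFD through untreated replicate 2, the library with the lowest marker sum of its group. EMPA + PFD and control 5w still lay above all control 9w and EMPA libraries. These ratios carry no test and were chosen after the values were seen, and the part of these markers in the calls of Prkce was not tested beyond them.

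Macrophage markers, 10 of 10 in the files and all above 0 in every library with Lyz2 the gene with the most reads, summed to 778, 2372 and 1926 CPM in control 5w and to 3483, 767 and 2047 CPM in HFpEF. In the libraries of week 9 the sum ran from 326 to 1012 CPM. Prkcb was high in the libraries where this sum was high. Over the 19 libraries the r of Prkcb with this sum was 0.916. Per 1000 CPM of the sum Prkcb varied from 5.27 to 21.4 CPM, a 4.07-fold range, where Prkcb itself had a 5.49-fold range and the sum a 10.7-fold range. HFpEF replicate 1, which held the highest Prkcb, Prkcq, Prkci and Prkcz, also had the lowest cardiomyocyte sum and the highest macrophage, T and NK cell, B cell, platelet and skeletal muscle sums. The part of these markers in the levels of those members was not tested.

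**Figure D3:**
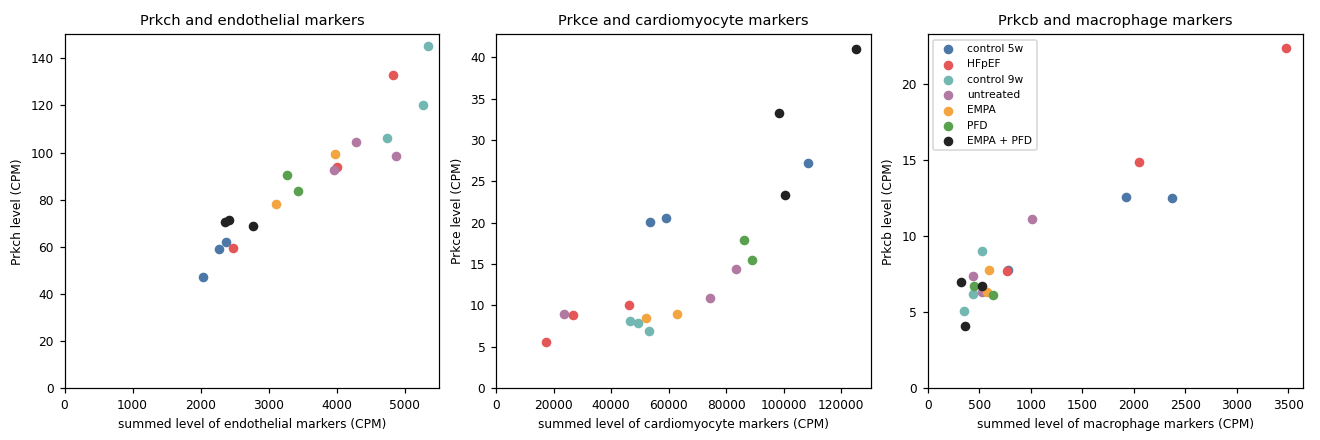
Level of Prkch, Prkce and Prkcb in CPM (y axes) against the summed level of endothelial, cardiomyocyte and macrophage markers in CPM (x axes), with 1 point per library colored by group. Prkch lies near a line through the origin, and Prkce is highest in EMPA + PFD, where the cardiomyocyte sum is high.

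Around the kinases, the other genes of the pathway were counted from lists, where week 5 stands for HFpEF against control 5w and the combination for EMPA + PFD against untreated. Prkd2 was 38.6, 36.9 and 42.3 CPM in control 5w and 41.8, 88.1 and 76.5 CPM in HFpEF. Prkd2, a PKD gene outside the 10 members, was called higher there (0.81 ± 0.24, adjusted p = 0.0294), though the groups are close in HFpEF replicate 1 and overlap. Of the receptors coupled to Gq, 17 of 18 were tested and 3 were called higher and 2 lower at week 5. The latter were Adra1a, an alpha-adrenergic receptor of the myocyte, at 14.8 ± 1.66 CPM in control 5w and 1.503 ± 0.759 CPM in HFpEF (SD, n = 3; log2 fold change -3.31 ± 0.44, adjusted p = 0.000593), and Lpar3 (-2.23 ± 0.62, 0.0226). Ptger1 was among those higher (1.00 ± 0.25, 0.0141). In EMPA + PFD against untreated 1 receptor was called higher and 0 lower.

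Downstream of the receptors, 1 of 16 Gq proteins, phospholipases C and IP3 receptors was called at week 5, higher, and 1 in EMPA + PFD against untreated, Itpr3, lower (-0.82 ± 0.18, adjusted p = 0.0168). Diacylglycerol kinases end the lipid signal that cPKC and nPKC read. Of the 7 tested, 1 was called higher at week 5, and in EMPA + PFD against untreated Dgkg was higher (1.66 ± 0.39, adjusted p = 0.0198) with Dgka (-0.79 ± 0.17, 0.0135) and Dgkq (-0.54 ± 0.17, 0.0469) lower. Of the 9 other diacylglycerol receptors tested, Rasgrp2 was higher at week 5 (0.98 ± 0.32, 0.0448) and Rasgrp4 lower under the combination (-1.06 ± 0.27, 0.0261). Among 12 genes of PKC maturation and shutoff none was called at week 5, and the phosphatase subunit Ppp2ca was higher under the combination (0.95 ± 0.27, 0.0373).

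Anchoring proteins hold PKC isoforms beside their targets. Of 19 tested, 2 were higher and 5 lower at week 5, among them Pdlim5, a Z-disc protein that binds PKC epsilon and PKD1, at 583 ± 27.3 CPM in control 5w and 130.5 ± 73.8 CPM in HFpEF (SD, n = 3; -2.16 ± 0.47, adjusted p = 0.00796), Pard6b (-1.68 ± 0.37, 0.00836) and Fez1 (2.17 ± 0.61, 0.0229). Under the combination 2 were higher and 0 lower. Of 23 substrates, 1 was higher and 5 lower at week 5, with Gja1, the main gap junction protein of the ventricle (-1.52 ± 0.34, 0.00975), and Kcnq1 (-1.30 ± 0.34, 0.0173). Under the combination 3 were higher and 5 lower, among the latter Marcks (-1.41 ± 0.39, 0.0330). Of 16 other genes of signaling kinases or their regulatory subunits, 2 were higher and 7 lower at week 5. Among them were Sgk1 (2.12 ± 0.22, 0.000184), the regulatory subunit gene Prkar2a (-1.42 ± 0.22, 0.00127) and Camk4 (1.39 ± 0.46, 0.0462). In this list 5 were higher and 1 lower under the combination. Of all genes tested 20.0% were called at week 5 and 12.1% under the combination. In the order in which these 8 lists are given here, their median log2 fold changes at week 5 were 0.19, 0.38, 0.73, 0.32, -0.26, -0.10, -0.49 and -0.64, beside 0.02 over all genes. Under the combination they were -0.13, -0.37, -0.05, -0.59, 0.20, 0.17, 0.22 and 0.37, beside -0.03. Over the 12 cardiomyocyte markers the medians were -1.21 at week 5 and 0.816 under the combination. The part of these markers in the calls of the lists was not tested.

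Promoters are shown for the 4 members that were lower together in control 9w than in control 5w. The RefSeq promoter table of the GRCr8 assembly holds 8 of the 10 members, with 250 bases before and 50 after an annotated transcript start. For Prkca, Prkcd and Prkce the gene reaches beyond the window, so the start used is not the outermost. These lie on the minus strand at chr10:93787278-93787577 (Prkca), chr16:5805790-5806089 (Prkcd), chr6:14204239-14204538 (Prkce) and chr2:114310735-114311034 (Prkci), and are printed 5′ to 3′ with each GC box, GGGCGG on either strand, in capitals.
Prkca: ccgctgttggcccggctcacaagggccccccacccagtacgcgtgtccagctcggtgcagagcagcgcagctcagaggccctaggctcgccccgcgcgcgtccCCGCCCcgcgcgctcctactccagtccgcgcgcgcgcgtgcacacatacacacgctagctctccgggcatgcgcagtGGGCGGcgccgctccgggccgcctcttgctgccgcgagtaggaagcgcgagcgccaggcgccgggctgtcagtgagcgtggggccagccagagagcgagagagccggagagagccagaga
Prkcd: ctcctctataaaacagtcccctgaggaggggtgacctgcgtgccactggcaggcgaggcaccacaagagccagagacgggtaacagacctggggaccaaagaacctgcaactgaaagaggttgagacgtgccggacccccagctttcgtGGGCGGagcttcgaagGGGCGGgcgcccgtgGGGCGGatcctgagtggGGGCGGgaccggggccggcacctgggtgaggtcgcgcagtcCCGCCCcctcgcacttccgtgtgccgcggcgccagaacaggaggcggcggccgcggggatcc
Prkce: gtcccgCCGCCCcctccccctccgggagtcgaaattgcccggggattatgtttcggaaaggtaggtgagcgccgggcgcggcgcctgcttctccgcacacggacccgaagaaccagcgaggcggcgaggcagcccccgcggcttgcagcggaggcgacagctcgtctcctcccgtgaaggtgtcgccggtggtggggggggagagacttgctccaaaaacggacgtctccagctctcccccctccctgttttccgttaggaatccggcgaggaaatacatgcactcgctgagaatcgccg
Prkci: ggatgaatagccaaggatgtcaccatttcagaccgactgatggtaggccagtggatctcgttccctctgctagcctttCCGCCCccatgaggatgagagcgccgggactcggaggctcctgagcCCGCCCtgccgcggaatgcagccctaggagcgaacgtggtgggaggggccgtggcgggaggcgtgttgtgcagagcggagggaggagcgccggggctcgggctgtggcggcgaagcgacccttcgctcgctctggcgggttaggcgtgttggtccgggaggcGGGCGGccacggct
The GC box occurred 2, 5, 1 and 3 times in these windows, and 33.1% of all 33469 promoters of this length hold at least 1. Their GC content was 73.3%, 69.0%, 66.3% and 68.0%, beside a median of 51.7% over all promoters. None holds CCAAT, which 37.5% of promoters do. TATAAA, found in 14.2% of promoters, occurred only in Prkcd, and the E-box CANNTG, in 72.1%, occurred 2 times in Prkcd and not in the other 3. The other members with a promoter were not called in control 9w against control 5w. Of these, Prkcq, Prkcz and Prkd1 had 67.0%, 73.3% and 76.0% GC with 1, 5 and 6 GC boxes, and Prkd3 had 31.3% and 0. CCAAT was absent from Prkcq and Prkd1 too, and occurred 5 times in Prkcz and 1 time in Prkd3. A high GC content and the GC box are thus not particular to the 4 promoters shown. The motif counts are matches of letters and name no bound factor.

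By the RefSeq genes of GRCr8, 5 of the 10 members overlap other genes, namely Prkcb, Prkce, Prkch, Prkcq and Prkd1. Prkce overlaps 3, among them Prkcel1. None of the overlapping genes is named in the count files. The strand setting of the counting is not given in the sources used here, so reads of such neighbors inside these members cannot be told apart from their own. The counts were made on rn6, and these genes serve only to say which genes neighbor each other.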

How the data were processed

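RNA was sequenced from left ventricles in 19 libraries, 1 per heart. The authors trimmed reads with Trim Galore, checked them with FastQC, aligned them to rn6 with HISAT2 and counted them per gene with htseq-count, and deposited raw counts per gene symbol without normalization. The strand setting and annotation are not given in the sources used here. The authors tested with DESeq2.

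Groups came from the labels. Counts were scaled by TMM to CPM and tested in edgeR 4.0.16 (R 4.3.3) by the quasi-likelihood F test, in 1 model of 7 groups with all 19 libraries, after filterByExpr kept 12388 of 17455 genes. Benjamini-Hochberg adjustment ran over all genes tested, in each of 10 comparisons, and calls needed an adjusted p under 0.05. Errors are SE of fitted log2 fold changes or SD of levels, and the biological coefficient of variation was 0.257. Alternatives were RLE and upper quartile normalization, other count filters, DESeq2 1.42.0, voom with sample weights in limma 3.58.1, fits to the compared groups, a replicate block, a term for Eif2s3y and the omission of libraries. A gene not called may still differ.

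Named were the 10 members, at most 3 called genes of each pathway list by the size of their log2 fold change in HFpEF against control 5w or EMPA + PFD against untreated, and up to 3 genes most like each member (prior count 2, mean at least 5 CPM). Lists of cell type markers and pathway genes were used. Members and lists were chosen with earlier results of these data known. Transcript lengths were not at hand, so the gene with the most reads in a list and the shares of the classes are of reads and not of molecules.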

Additional observations from a re-analysis of the deposited data

Results flagged for a closer look

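The difference between diseased and control hearts changed between the weeks for 3 of 10 members, against 20.0% of all genes, by the test of that change in edgeR. In the same test 5 of 10 endothelial markers were called lower and 3 of 12 cardiomyocyte markers higher. The part of these markers in the calls of the members was not tested. On the log2 scale the difference at week 9 minus that at week 5 was 2.05 for Prkce, 1.24 for Prkca and -1.10 for Prkch. From week 5 to week 9 diseased hearts changed by 0.49 in Prkce, -0.03 in Prkca and 0.05 in Prkch. Control hearts changed by -1.56, -1.26 and 1.14. RT1-CE16 differs between the weeks in both, and Eif2s3y status enters through untreated and HFpEF. Prkca and Prkch lost the call in some alternatives, as given above, and Prkce in none. Prkce was lower in HFpEF than in control 5w in 3 of 3 libraries and higher in untreated than in control 9w in 3 of 3, though this latter difference was not called.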

How the results depend on the processing

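Each result was fitted under 31 alternatives. The count of members called in HFpEF against control 5w, 3, became 1 under the 2-fold rule and in the fit to the groups compared, 5 in voom, and 1 to 3 with a library left out (1 without control 5w replicate 2 or 3). In EMPA + PFD against untreated, 2 became 1 under the 2-fold rule and with the term for Eif2s3y, 0 in the fit to the groups compared, 5 in voom, and 1 to 3 with a library left out (1 without untreated replicate 2 or 3 or EMPA + PFD replicate 2 or 3). In EMPA + PFD against control 9w, 4 became 1 under the 2-fold rule and 2 to 4 with a library left out (2 without control 9w replicate 2). The difference between weeks, 3, became 1 in the fit to the groups compared, 5 in voom, and 1 to 3 with a library left out (1 without control 5w replicate 2, control 9w replicate 2 or untreated replicate 1). Voom gave 1 for untreated against control 9w and 3 for untreated against HFpEF, each 0 in edgeR, and the latter ran from 0 to 1 with a library left out. The counts of members in voom were not set against the share of all genes called in voom, so a general rise in calls is not separated from them. The count for control 9w against control 5w, 5, lay between 4 and 7, and those for EMPA, PFD and the interaction were 0 throughout. With a library left out the calls over all genes ran from 4 to 15 for EMPA, 0 to 2 for PFD, 1 to 10 for the interaction and 4 to 1787 for untreated against HFpEF. The sign turned with the term for Eif2s3y for Prkcb (-0.51) and Prkcq (-0.29) in HFpEF against control 5w, Prkch in untreated against control 9w (0.47) and Prkcd in EMPA + PFD against untreated (0.37). Without the HFpEF libraries lacking Eif2s3y, which leaves 1 HFpEF library assumed to vary like the other groups, it turned for Prkcb (-0.51) and Prkcq (-0.29) in HFpEF against control 5w and Prkcb in untreated against HFpEF (0.11). For HFpEF against control 5w, both settings set HFpEF replicate 2 alone against control 5w, so they are not separate results. Prkcd in EMPA against untreated ran from -0.07 to 0.86 with an EMPA library left out. The cause was not tested. With a replicate block the counts, in the order HFpEF and control 9w against control 5w, untreated against control 9w and HFpEF, EMPA + PFD, EMPA and PFD against untreated, EMPA + PFD against control 9w, week difference and interaction, were 3, 4, 0, 0, 2, 0, 0, 4, 2 and 0. Of 22 pairs of libraries with the same number 4 correlated over 0.1 (-0.532 to 0.351). These are correlations of deviations from the means of small groups, so they are not independent. They cannot decide whether the numbers pair libraries. The share of each class per coding length was not run for want of lengths. At these depths Prkcz, with 18 to 165 counts, has the lowest counts of the members and so the largest counting error.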

Other observations

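Among the remaining cell type lists, several had summed levels that varied widely between single libraries. Fibroblast markers, 10 of 10 in the files with Col3a1 the gene with the most reads, ranged from 2490 CPM in EMPA + PFD replicate 2 to 47509 CPM in control 5w replicate 2, and 8 of 10 were called lower in control 9w against control 5w, where 34.5% of all genes and Prkcd were called. In control 5w replicate 1 the sum was 5368 CPM, near the 3642 to 5330 CPM of control 9w. Over the 19 libraries the r of Prkcd with this sum on the log2 scale was 0.808, and that of Prkca 0.458. Atrial markers, 8 of 8 with Nppa the gene with the most reads, ranged from 198 CPM in untreated replicate 1 to 23744 CPM in control 9w replicate 3. Untreated replicate 2 held 15100 CPM of them and untreated replicate 3 held 593 CPM. T and NK cell markers summed to 23.8 to 121 CPM with Lck the gene with the most reads, and 8 of 10 were called higher in HFpEF against control 5w, where 20.0% of all genes were called.

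Smooth muscle and pericyte markers ranged from 1567 to 4066 CPM (Abcc9 the gene with the most reads), adipocyte markers (7 of 7 in the files) from 556 to 3660 CPM (Fabp4) and erythroid markers (8 of 9) from 143 to 3973 CPM (Hbb). Lists of low level were B lymphocyte (7 of 8 in the files, 2.72 to 15.9 CPM, Cd22), neutrophil (8 of 8, 4.38 to 80.2 CPM, S100a9), platelet (5 of 7, 8.97 to 97.6 CPM, Pf4, with Gp1bb at 0 in every library) and skeletal muscle markers (8 of 8, 21.9 to 103 CPM, Tnnt3). The part of these cell types in the levels of the members was not tested.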
